A study of Mus musculus with 12 samples.

Results

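The F1 offspring of FVB/NJ, an inbred laboratory strain, and PWD/PHJ, an inbred strain derived from wild mice, were examined for the balance of the parental alleles in muscle and liver mRNA. Members were all SNPs whose cross was given as FVB/NJ-PWD/PHJ, 24 of the 89 SNPs in 5 crosses. All 24 were read in genomic DNA (gDNA), 20 of them in muscle mRNA and 14 in that of liver, so that 10 had both tissues, 10 muscle alone and 4 liver alone. The F1 mice were 4 weeks old, and the labels name no transgene, targeted allele or treatment. RNA of skeletal muscle and of liver each came from 2 littermates combined in 1 extraction (about 0.3 g each, 0.6 g in all), and a single littermate gave the tissue for gDNA, liver or muscle, about 50 mg. Not given in the sources used here were the sex of the mice, which strain was the mother and which strain carries each base. Whether any amplicon lies in a marker gene of muscle or liver was not looked up, so the tissue labels were not checked. There was therefore 1 pooled RNA per tissue and 1 amplification per SNP and template, sequenced by the 454 pyrosequencing method in 3 runs. The p-values of the exact tests and the intervals below cover the counting of reads only. All p-values and intervals compare amplicons of these pools, not groups of animals.

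An F1 animal holds both parental copies of a gene in the same nucleus, under the same hormones and regulatory factors. An unequal ratio of the copies in mRNA, when their ratio in gDNA is taken into account, is therefore the usual measure of differences that act on the transcript's own copy, in transcription, processing or stability. MicroRNAs are short RNAs that pair with mRNAs mainly through their seed and lower the stability and translation of the target. miR-1 and miR-133 are abundant in muscle and miR-122 in hepatocytes, and the amplicons of the series covered sites of these microRNAs and control sites, with gDNA amplified as the check on PCR bias between alleles. Which of the 24 SNPs lies in which kind of site, and the genes and positions of the SNPs, were not analysed here.

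Each SNP had its own primer pair, used alike on gDNA and on both cDNAs, and none of the 48 primers served a second SNP. The primers were 21 to 26 bases long and held 38.5% to 61.9% G and C (median 52.4%). Those of the SNPs with the largest called ratio in each comparison are given 5′ to 3′ as deposited, and those of rs27243453 because that SNP is described in both tissues. A microRNA of the muscle family named by the series follows, from RefSeq (GRCm38.p6, plus strand of chr1:20682834-20682855), with its seed (bases 2 to 8) in capitals.
rs45902379 forward: tgaatgggagctcttgtctgc
rs45902379 reverse: ttcacgaaaggacagcagcat
rs38561286 forward: tgctgtcaacatttcctttttgc
rs38561286 reverse: agagctgcagggctctcttgt
rs48362062 forward: ttcactaggaccctgcacctg
rs48362062 reverse: accaggaaacgaagccacatac
rs27243453 forward: caggagagagaggaggcaggt
rs27243453 reverse: cctgcgttactggaacttgga
mmu-miR-133b-3p: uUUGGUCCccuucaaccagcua

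The cross had 236680 allele reads, with 80545, 83091 and 73044 in runs 1 to 3, and each of its 58 amplicons had reads in all 3 runs. Reads per SNP were 953 to 6437 in gDNA, 921 to 9264 in muscle and 1435 to 10056 in liver. Between runs the SD of the share had a median of 1.50 percentage points for gDNA, 1.25 for muscle and 1.44 for liver. It passed 4 points in 2 amplicons. In muscle at rs13474726 the G allele took 51.1%, 62.3% and 46.8% of the reads in runs 1 to 3 (SD 8.02 points), and in liver at rs49885659 the A allele took 52.6%, 50.1% and 44.0% (SD 4.46 points). Neither was called against gDNA. Relative to counting error, the runs differed most in muscle at rs13474726 (chi-square 41.7 on 2 df), in liver at rs48362062 (15.4) and in gDNA at rs30172711 (10.7), beside 5.31 at rs49885659 in liver.

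In gDNA the alleles were close to equal at 23 of the 24 SNPs, where each allele held between 45% and 55% of the reads. The exception was rs38561286, at which the C allele took 85.2%, 82.0% and 82.8% of gDNA reads in the 3 runs and outnumbered T by 5.08-fold (95% interval 4.53 to 5.70). By the exact binomial test against 1:1, adjusted over all 89 SNPs, 3 SNPs of the cross departed from equality, against 24.7% of SNPs called in the series. Besides rs38561286 these were rs30172711, with A at 54.5% of summed reads (1.20-fold over G), and rs26921101, with A at 53.6% (1.16-fold over G). Both had A above G in every run. The departure at rs30172711 was not called by a quasi-binomial model that takes its error from the runs (adjusted p = 0.473, the highest value over the alternatives, which began at 3.33e-09). Among the 21 SNPs not called the more frequent allele was at most 1.10-fold over the other. Without run 1, 5 SNPs were called, with rs13474726 (adjusted p = 0.0365 by the exact binomial test) and rs32565756 (0.0269) added. Without run 2 rs27806858 was added (0.0356).

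**Figure D1:**
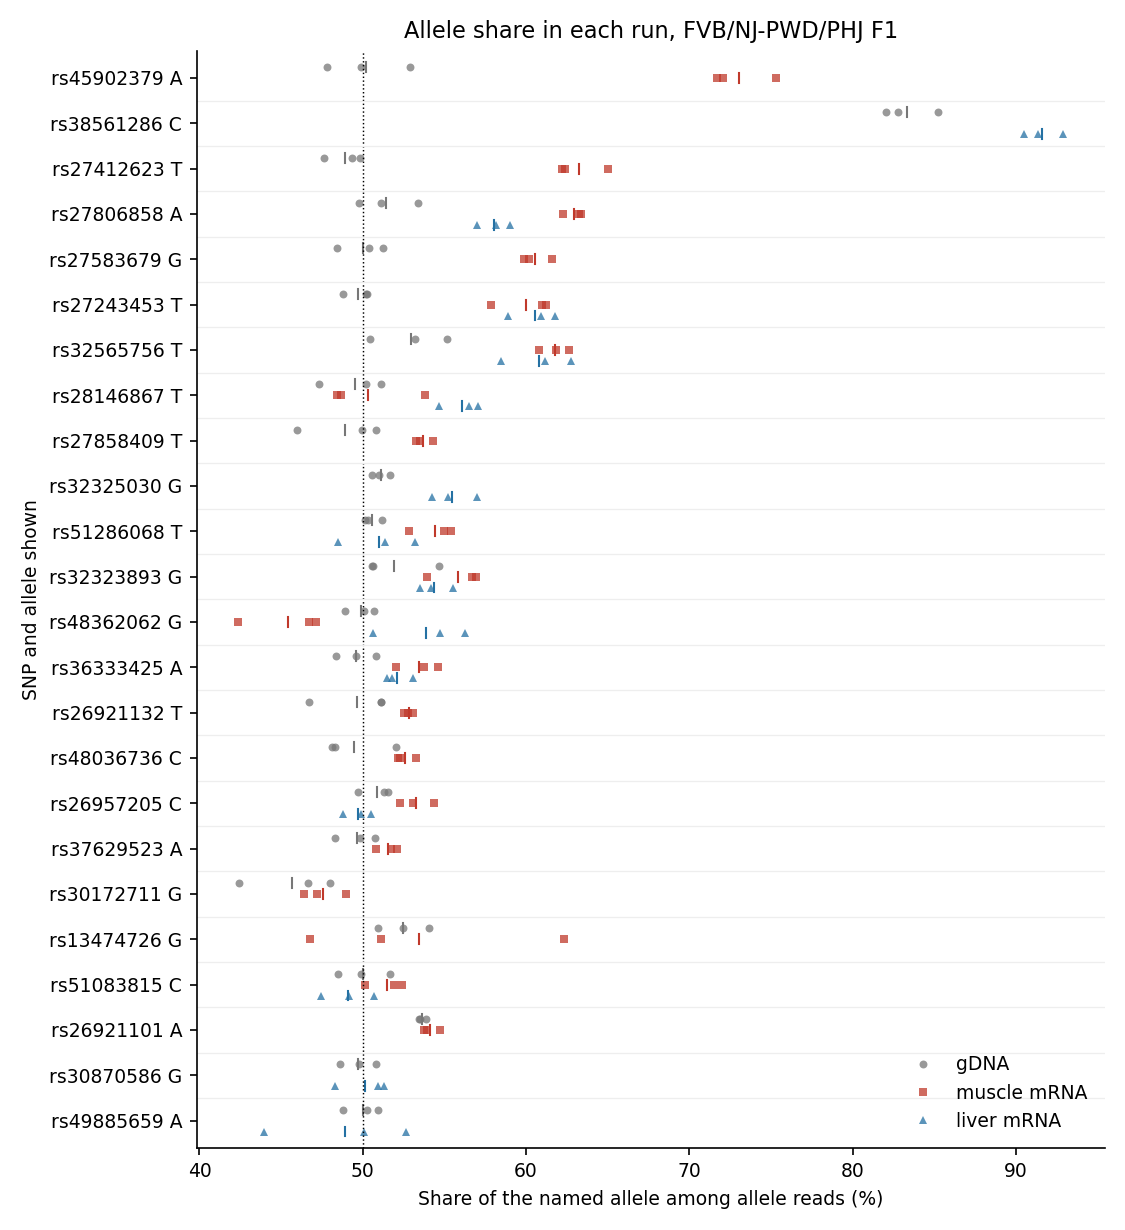
Share of one allele of each of the 24 SNPs among allele reads (horizontal axis, %), in gDNA (circles), muscle mRNA (squares) and liver mRNA (triangles); each point is 1 of 3 sequencing runs, short bars are means over runs, and the dotted line marks 50%. The gDNA points lie near 50% except at rs38561286, where they run from 82.0% to 85.2% with the liver points beyond them (90.5% to 92.9%); the muscle points of rs45902379 run from 71.7% to 75.3%.

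Muscle mRNA was set against gDNA to ask which transcripts carried unequal amounts of the parental alleles in muscle. The allele ratio differed at 13 of 20 SNPs (65.0%) by Fisher's exact test with adjustment over all 75 SNPs of the series, of which 62.7% were called. The share in this cross was near that of the series and is not a result about the cross. The median shift over all tested SNPs was 1.16-fold here and 1.17-fold in the series. A fold here is the ratio of the 2 alleles in muscle over the same ratio in gDNA, given for the allele that gained. The 13 called shifts ran from 1.08-fold to 2.73-fold with a median of 1.21-fold. Of the 20 tested SNPs 5 reached 1.5-fold, beside 13 of 75 in the series.

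At rs45902379 the A allele took 71.7%, 75.3% and 72.1% of muscle reads in runs 1 to 3, and 49.9%, 47.8% and 52.9% of gDNA reads. The lowest muscle run lay 18.8 points above the highest gDNA run. The ratio of A to G was 2.73-fold higher in muscle than in gDNA (95% interval 2.49 to 2.99; 73.0% ± 2.00 against 50.2% ± 2.54, SD, n = 3 runs; adjusted p = 2.33e-104 by Fisher's exact test). No other muscle shift of the cross reached 2-fold.

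At rs27412623 the T allele took 62.4%, 65.0% and 62.2% of muscle reads against 47.6%, 49.8% and 49.3% in gDNA (1.80-fold, 95% interval 1.64 to 1.98, adjusted p = 9.57e-34 by Fisher's exact test). The runs of the templates did not overlap. At rs27806858 the A allele stood at 62.3%, 63.2% and 63.3% in muscle and at 53.4%, 49.8% and 51.1% in gDNA (1.58-fold, 1.45 to 1.73, adjusted p = 8.37e-23, Fisher's exact test). The spread between runs of this SNP lay mostly in gDNA (SD 1.82 points, against 0.588 in muscle). At rs27583679 the G allele took 59.9%, 61.6% and 60.2% in muscle and 51.3%, 48.4% and 50.4% in gDNA (1.55-fold, 1.44 to 1.67, adjusted p = 1.43e-28, Fisher's exact test). At rs27243453 the T allele took 61.2%, 61.0% and 57.8% in muscle and 50.2%, 48.8% and 50.2% in gDNA (1.50-fold, 1.33 to 1.69, adjusted p = 5.90e-11, Fisher's exact test). In each of these 4 SNPs all muscle runs lay above all gDNA runs. rs32565756 had the fewest muscle reads of the cross (921), and its T allele made up 61.7% ± 0.933 of them against 52.9% ± 2.40 in gDNA (SD, n = 3 runs; 1.47-fold, 1.25 to 1.72).

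The other 7 called shifts were small. They were found at rs27858409 (T over A, 1.21-fold), rs51286068 (T over C, 1.18-fold), rs32323893 (G over A, 1.18-fold), rs36333425 (A over G, 1.16-fold), rs48362062 (A over G, 1.16-fold), rs48036736 (C over T, 1.12-fold) and rs37629523 (A over G, 1.08-fold). At these SNPs muscle shares of the gaining allele were between 51.5% and 56.3% of summed reads. Each of the 13 called SNPs had the same allele gaining in 3 of 3 runs. For this the templates were paired by run number, which was not shown to pair them. At 12 of them the lowest muscle run was above the highest gDNA run, as it was, for the gaining allele, at 85.1% of all called SNPs of the series. The exception was rs32323893 (53.9% to 57.0% in muscle, 50.6% to 54.6% in gDNA). The gap was as small as 0.14 points at rs48036736 and 0.09 points at rs37629523.

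The 6 largest shifts, down to rs32565756, were called under every alternative that kept gDNA as the reference, with adjusted p up to 0.0305. The 7 small ones were not. When an added variance per amplicon was allowed for, taken from the scatter of all gDNA ratios (SD 0.0754 on the log2 scale), none of the 7 was called, and with the quasi-binomial model only rs51286068 was. Over the alternatives that kept gDNA as the reference, the adjusted p ran from 4.26e-07 to 0.0595 at rs27858409. It ran from 2.86e-06 to 0.0933 at rs51286068, from 0.00451 to 0.143 at rs32323893 and from 0.000320 to 0.151 at rs36333425. It ran from 0.00800 to 0.188 at rs48362062, from 0.00168 to 0.316 at rs48036736 and from 0.0296 to 0.510 at rs37629523. Calls also turned on single runs in Fisher's exact test. Without run 2, by this exact test, rs32323893 (adjusted p = 0.103), rs48036736 (0.114) and rs37629523 (0.176) were not called. Without run 3, rs36333425 (exact test, 0.0517), rs37629523 (0.106), rs48362062 (0.155) and rs48036736 (0.260) were not called, while rs13474726 was (0.00809), whose G share in that run was 46.8% against 51.1% and 62.3% in the others.

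The remaining 7 SNPs showed no called difference between muscle and gDNA. The 3 with the narrowest intervals were rs30172711 (G over A, 1.08-fold, 95% interval 0.995 to 1.16), rs26921101 (A over G, 1.02-fold, 0.942 to 1.11) and rs51083815 (C over T, 1.05-fold, 0.966 to 1.14). At rs26921101 the lowest share of A in any run of either template was 53.5%, so that the excess of A in muscle mRNA (54.1% of summed reads) was also present in gDNA (53.6%). The others were rs26921132 (T over C, 1.13-fold, 0.977 to 1.30), rs26957205 (C over T, 1.10-fold, 0.984 to 1.23), rs13474726 (G over A, 1.06-fold, 0.949 to 1.19) and rs28146867 (T over C, 1.002-fold, 0.907 to 1.11). At rs26921132 and rs26957205 the runs of muscle and gDNA did not overlap although the test made no call (56.8% of all tested SNPs of the series had no overlap, called or not). With only 953 gDNA reads, rs26921132 had an upper bound of 1.30-fold, the highest among the SNPs not called.

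**Figure D2:**
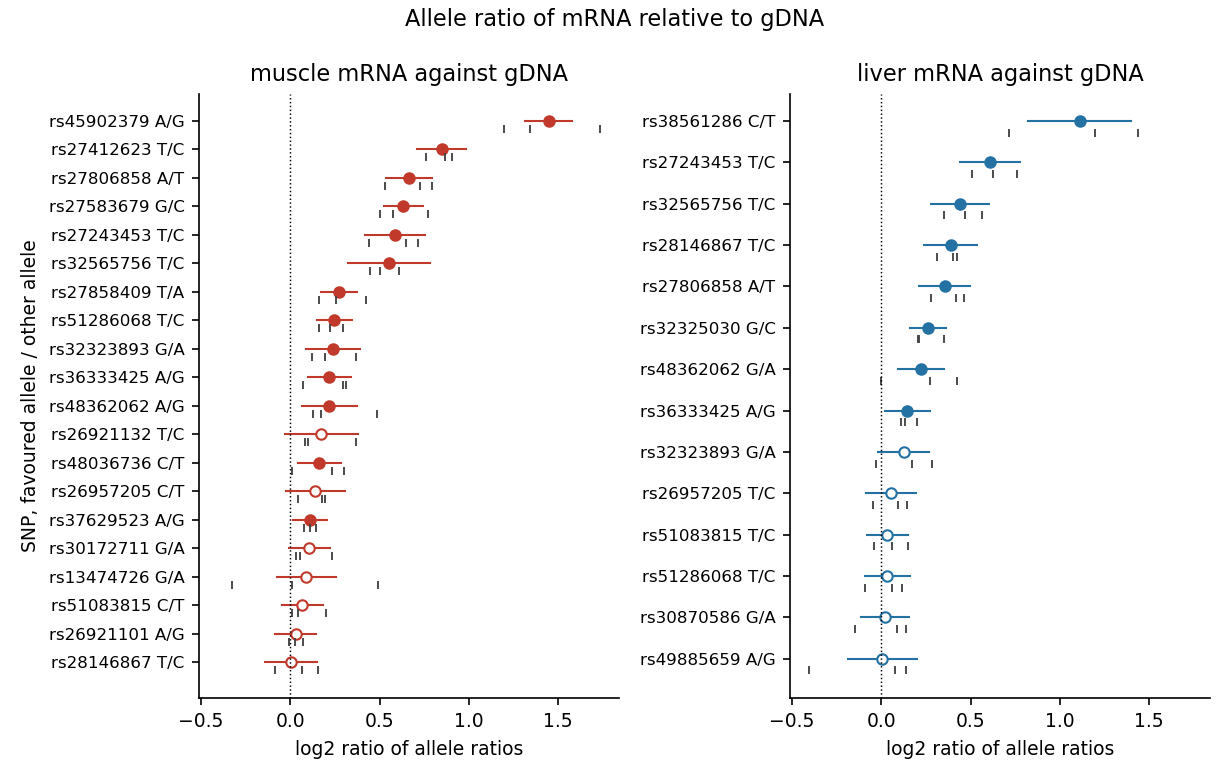
log2 ratio of the allele ratio in muscle mRNA (left, 20 SNPs) or liver mRNA (right, 14 SNPs) to that in gDNA, for the allele that gained. Circles are summed reads, horizontal lines 95% intervals from counting error, ticks below them the 3 runs, and filled circles the SNPs called by Fisher's exact test; the values run up to 1.45 at rs45902379 in muscle and 1.11 at rs38561286 in liver, and the ticks of rs13474726 spread to both sides of 0.

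The same question was asked of liver mRNA. The allele ratio differed at 8 of 14 SNPs (57.1%) by Fisher's exact test, adjusted over 64 SNPs of the series, of which 65.6% were called. The median shift over the tested SNPs was 1.14-fold in this cross and 1.18-fold in the series. Called shifts ran from 1.11-fold to 2.16-fold. Of the 14 tested SNPs 2 reached 1.5-fold, beside 9 of 64 in the series.

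The largest was at rs38561286, which was measured in liver alone. Its C allele took 90.5%, 91.3% and 92.9% of liver reads and 85.2%, 82.0% and 82.8% of gDNA reads, so that T made up 348 of 2118 reads in gDNA and 154 of 1848 in liver. The ratio of C to T was 2.16-fold higher in liver than in gDNA (95% interval 1.77 to 2.64, adjusted p = 7.61e-14 by Fisher's exact test), and 1.64-fold, 2.29-fold and 2.71-fold in runs 1 to 3. This fold is relative to the gDNA ratio of 5.08-fold described above. The runs did not overlap.

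At rs27243453 the T allele stood at 58.9%, 61.8% and 60.9% in liver against 50.2%, 48.8% and 50.2% in gDNA (1.52-fold, 95% interval 1.36 to 1.71, adjusted p = 3.80e-12 by Fisher's exact test). At rs32565756 the T allele took 58.5%, 62.7% and 61.1% in liver and 50.4%, 53.2% and 55.2% in gDNA (1.36-fold, 1.21 to 1.52, adjusted p = 4.29e-07, Fisher's exact test). At rs28146867 it took 54.6%, 57.1% and 56.5% in liver and 47.3%, 50.2% and 51.1% in gDNA (1.31-fold, 1.18 to 1.45, adjusted p = 8.34e-07, Fisher's exact test). At all 3 SNPs the liver runs lay above the gDNA runs. At rs27806858 the A allele took 58.2%, 57.0% and 59.0% in liver and 53.4%, 49.8% and 51.1% in gDNA (1.28-fold, 1.16 to 1.41, adjusted p = 2.33e-06, Fisher's exact test), again without overlap. Smaller shifts were called at rs32325030 (G over C, 1.20-fold), which had the most liver reads of the cross (10056), at rs48362062 (G over A, 1.17-fold) and at rs36333425 (A over G, 1.11-fold).

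Of the 8 called SNPs, 7 had the same direction in all runs, paired by run number, and no overlap between liver and gDNA runs. Of all called SNPs of the series, 88.1% had no such overlap, and of all tested SNPs 60.3%. The exception was rs48362062, where the G allele took 54.8%, 56.3% and 50.7% in liver and 50.1%, 48.9% and 50.7% in gDNA, so that the third run showed no shift (0.999-fold). The calls at rs38561286, rs27243453, rs32565756, rs28146867 and rs27806858 were made under every alternative that kept gDNA as the reference, with adjusted p up to 0.0419. Over those alternatives the adjusted p ran from 1.69e-06 to 0.0604 at rs32325030 and from 5.75e-05 to 0.258 at rs48362062. It ran from 0.0362 to 0.367 at rs36333425. All 3 were lost with extra variance, and the last 2 with the quasi-binomial model. By Fisher's exact test rs36333425 was lost without run 2 (adjusted p = 0.0963) and without run 3 (0.202), and rs48362062 without run 2 (0.151). rs32323893 was called without run 1 (0.0272), in which gDNA held 54.6% G against 50.6% in the other runs.

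Among the 6 SNPs not called in liver, the 3 with the narrowest intervals were rs51083815 (T over C, 1.02-fold, 0.947 to 1.11), rs51286068 (T over C, 1.02-fold, 0.939 to 1.12) and rs30870586 (G over A, 1.01-fold, 0.925 to 1.11). The others were rs26957205 (T over C, 1.04-fold, 0.943 to 1.15), rs32323893 (G over A, 1.09-fold, 0.988 to 1.20) and rs49885659 (A over G, 1.004-fold, 0.878 to 1.15). At each of the 6 the direction varied between the runs, paired by run number. The depth left shifts of up to 1.20-fold, the highest upper bound of the 6, within the counting error.

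The tissues were then compared directly at the 10 SNPs read in both, which asks whether the same transcript has a different allele ratio in muscle and in liver. This comparison does not use gDNA. The ratio differed at 5 of 10 SNPs by Fisher's exact test, adjusted over 50 SNPs of the series, of which 62.0% were called. The differences were modest, from 1.14-fold to 1.35-fold among those called, and none reached 1.5-fold, beside 8 of the 50 SNPs of the series. The median over all tested SNPs was 1.11-fold in this cross and 1.19-fold in the series. It was also 1.11-fold in CAST/EIJ-PWD/PHJ, where 1 of 12 SNPs reached 1.5-fold. In A/J-C57BL/6J it was 1.19-fold (3 of 15 SNPs) and in WSB/EiJ-MOLF/EiJ 1.35-fold (4 of 12). A/J-DBA/2J had 1 SNP, at 1.24-fold. Whether the crosses differ was not tested.

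At rs48362062 the A allele took 52.9%, 53.3% and 57.6% of muscle reads and 45.2%, 43.7% and 49.3% of liver reads, the gDNA share lying between them at 50.1% of summed reads. Muscle had 1.35-fold more A relative to G than liver (95% interval 1.24 to 1.48, adjusted p = 1.18e-10 by Fisher's exact test). The ratios were 1.36-fold, 1.47-fold and 1.40-fold in runs 1 to 3, and the runs of the tissues did not overlap. The call was not made with the quasi-binomial model (adjusted p = 0.0684; from 1.48e-12 to 0.0684 over the alternatives).

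At rs28146867 the C allele took 51.6%, 51.3% and 46.2% in muscle and 45.4%, 42.9% and 43.5% in liver (1.31-fold, 95% interval 1.19 to 1.43, adjusted p = 4.80e-08 by Fisher's exact test). Every muscle run was above every liver run, and the ratio within a run was lowest in run 3 (1.11-fold). In gDNA C held 50.6% of summed reads, close to muscle at 50.5% and above liver at 43.9%. At rs27806858 the A allele took 62.3%, 63.2% and 63.3% in muscle and 58.2%, 57.0% and 59.0% in liver (1.24-fold, 1.12 to 1.37, adjusted p = 5.80e-05, Fisher's exact test). Both tissues held more A than gDNA (51.8%), muscle by the larger amount. The calls at these 2 SNPs were made under all alternatives, with adjusted p up to 0.0405.

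At rs51286068 the T allele took 55.4%, 55.0% and 52.9% in muscle and 51.3%, 53.2% and 48.5% in liver, ranges that overlapped (1.16-fold, 95% interval 1.06 to 1.26, adjusted p = 0.00149 by Fisher's exact test). At rs26957205 the C allele took 53.1%, 52.3% and 54.4% in muscle and 50.5%, 49.9% and 48.8% in liver, without overlap (1.14-fold, 1.04 to 1.26, adjusted p = 0.0113, Fisher's exact test). At the latter neither tissue differed from gDNA by a called amount, and its tissues lay on either side of gDNA (50.7% C). Without run 3 neither was called by Fisher's exact test (adjusted p = 0.0578 at rs51286068 and 0.124 at rs26957205). Nor was either called with extra variance (0.158 and 0.215, the highest over the alternatives, which began at 0.00146 and 0.0113).

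The runs of the tissues did not overlap at 4 of the 5 called SNPs, beside 90.3% of called and 59.2% of all tested SNPs of the series. At the other 5 SNPs no difference between the tissues was called. The 3 with the narrowest intervals were rs36333425 (A over G, 1.05-fold, 0.973 to 1.14), rs51083815 (C over T, 1.07-fold, 0.989 to 1.16) and rs32323893 (G over A, 1.08-fold, 0.996 to 1.18). rs51083815 was called without run 2 (adjusted p = 0.0173 by Fisher's exact test). At rs27243453 the T allele made up 59.9% of summed reads in muscle and 60.2% in liver, beside 49.8% in gDNA, and the ratio of the tissues was 1.02-fold (C over T, 0.913 to 1.13). At rs32565756 it made up 61.7% in muscle and 59.8% in liver, beside 52.3% in gDNA (T over C, 1.08-fold, 0.928 to 1.26). These intervals leave tissue differences of up to 1.26-fold within counting error, so they do not show a like ratio in both tissues.

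**Figure D3:**
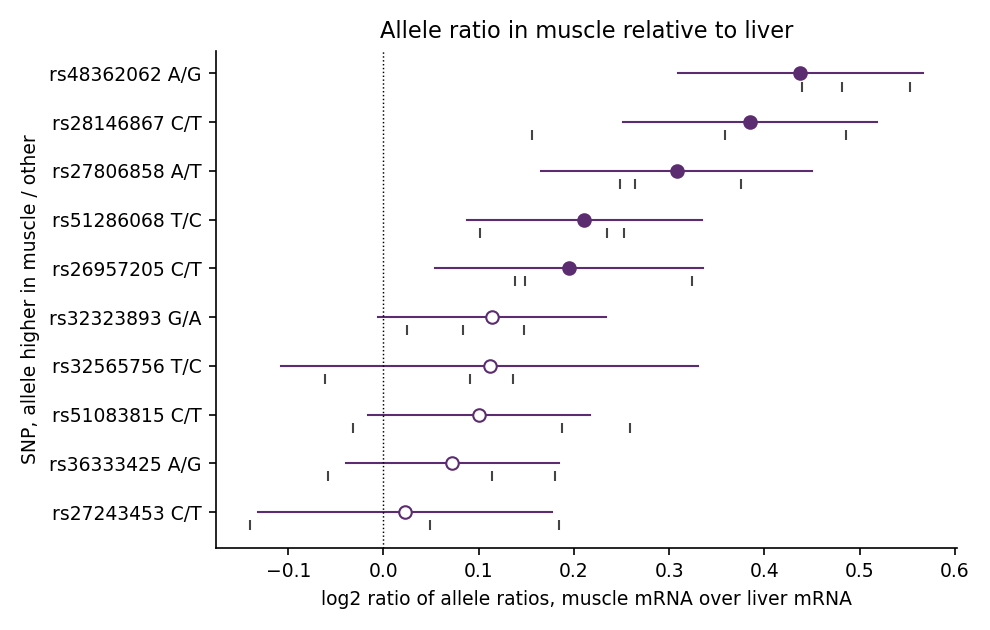
log2 ratio of the allele ratio in muscle mRNA to that in liver mRNA at the 10 SNPs read in both tissues, for the allele higher in muscle. Circles are summed reads, lines 95% intervals from counting error, ticks the 3 runs, and filled circles the 5 SNPs called by Fisher's exact test; the values run from 0.02 at rs27243453 to 0.44 at rs48362062.

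The primers being shared, no pool held the same SNP from 2 templates. Template and pool can therefore not be told apart for any single SNP. Muscle calls were made at 5 of 7 SNPs with muscle in pool 3 and gDNA in pool 1, at 5 of 8 with pools 3 and 2, and at 3 of 5 with pools 4 and 1. Liver calls were made at 4 of 7 SNPs with liver in pool 2 and gDNA in pool 1, at 3 of 4 with pools 4 and 1, and at 1 of 3 with pools 4 and 2. Between tissues, 1 of 5 SNPs was called with muscle in pool 3 and liver in pool 4, namely rs27806858, and 4 of 5 with muscle in pool 4 and liver in pool 2. Over all SNPs of the series, whatever their pools, 62.7% were called in muscle, 65.6% in liver and 62.0% between the tissues. Series counts for each pair of pools are not given here. The part of the pools in these counts was not tested.

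Of the 24 SNPs, 20 were transitions (10 A/G and 10 C/T) and 4 transversions (2 A/T and 2 C/G). The 20 transitions set A or T against G or C, a contrast that does not depend on the strand on which the alleles are written. In the other crosses SNPs of this kind also include A/C and G/T changes (4 and 3 in the series). In muscle mRNA relative to gDNA, the A or T allele gained at 8 of the 10 called SNPs of this kind and the G or C allele at rs32323893 and rs48036736. In the other crosses A or T gained at 14 of 32 called SNPs. Over all tested SNPs of this kind, called or not, it gained at 11 of 17 here and at 24 of 50 in the other crosses. In liver A or T gained at 4 of 6 called SNPs here and 16 of 32 in the other crosses, and at 8 of 12 and 25 of 46 of all tested. Between the tissues A or T was the allele higher in muscle at 2 of 4 called SNPs here and 9 of 25 in the other crosses, and at 4 of 9 and 17 of 37 of all tested. In gDNA itself the A or T allele was the more frequent at 8 of the 20 SNPs and the G or C allele at 11, and rs49885659 had equal reads of both. In gDNA of the other crosses A or T was the more frequent at 36 of 59 SNPs of this kind and G or C at 22. These counts are descriptions of the SNPs that were assayed, with no test.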

How the data were processed

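Per the file headers, the authors deposited unnormalised read counts of both alleles for each amplicon and run, with template, cross and primers. The authors mixed about 60 amplicons per pool in equal molar amounts, per the labels' protocols, so only ratios within an amplicon were used. Not given in the sources used here were the read assignment, filters and build. The first-listed allele changed between files at 18 of the 24 SNPs, and alleles were matched by base.

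Reads were summed over runs. Templates were compared by Fisher's exact test and gDNA with 1:1 by an exact binomial test (both two-sided), with Benjamini-Hochberg adjustment over all SNPs of the series, a threshold of 0.05 and at least 20 reads per template. Folds and log2 ratios had 0.5 added to each count, with 95% intervals from the standard error. PCR reads carry no molecular identifiers and are not independent molecules. The tests were tried on simulated counts. These had binomial error only and equal alleles in the reference template, so they could not show the effect of scatter between runs or amplicons. Alternatives were a Mantel-Haenszel test over runs, a quasi-binomial model, added variance per amplicon, minima of 50 or no reads, mRNA against 1:1, and each run left out. Python 3.11.15, SciPy 1.17.1 and statsmodels 0.14.6 were used.

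All SNPs of the cross are named, with shares in every run for the 5 largest called shifts of each comparison of templates. Among SNPs not called, the 3 with the narrowest intervals are named first, with fold and interval. The members, tests and lists were chosen with earlier results of these data known.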

Additional observations from a re-analysis of the deposited data

Results flagged for a closer look

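The 5 SNPs called between muscle and liver by Fisher's exact test (two-sided, adjusted over 50 SNPs) are listed as differences between the muscle and liver amplicons. Template and pool cannot be told apart for any of them. Expressed as log2 of muscle over liver, the difference was 0.44 at rs48362062 (A over G), 0.38 at rs28146867 (C over T), 0.31 at rs27806858 (A over T), 0.21 at rs51286068 (T over C) and 0.20 at rs26957205 (C over T). Each had the same direction in 3 of 3 runs, paired by run number, although at rs51286068 the runs of the tissues overlapped. Only the calls at rs28146867 and rs27806858 were made under all the alternatives.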

How the results depend on the processing

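Minima of 50 or no reads changed no count of calls. The number of called SNPs in muscle against gDNA was 13, and 7 when the error came from the runs (quasi-binomial) and 6 with extra variance per amplicon. In liver against gDNA it was 8, and 6 with the quasi-binomial model and 5 with extra variance. Between muscle and liver it was 5, and 3 with either of these. Leaving out each run in turn gave 10 to 13 calls in muscle, 6 to 9 in liver, 3 to 6 between the tissues and 3 to 5 in gDNA. With the run number as a replicate block the counts were 13, 8 and 5, and no call changed. The labels do not say whether the same run number is the same plate in all pools, and the number was not shown to pair the templates, whose deviations in the same run correlated from -0.43 to 0.36, with 3 of 9 best with their own number. Against 1:1 without gDNA, 18 of 20 SNPs were called in muscle and 9 of 14 in liver. Shares of the series under the alternatives are not given here, so these changes are not a result about the cross.

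Signs changed only at SNPs that were not called in the comparison concerned. Against 1:1 the log2 ratio in muscle was -0.15 at rs30172711 (called there; gDNA itself had 54.5% A) and -0.030 at rs28146867, and in liver -0.0010 at rs30870586. With the replicate block it was -0.0095 at rs49885659 in liver. With each run left out in turn it ran in muscle from -0.17 to 0.30 at rs13474726 and from -0.017 to 0.050 at rs28146867. In liver it ran from -0.030 to 0.12 at rs30870586, from -0.095 to 0.11 at rs49885659, from -0.030 to 0.092 at rs51083815 and from -0.024 to 0.098 at rs51286068. Between the tissues it ran from -0.063 to 0.13 at rs27243453. The cause was not tested.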
